A study of Mus musculus with 2 samples.

Results

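Follicle keratinocytes that carry Krt6a or Cst6 were drawn from single-cell RNA profiles of neonatal mouse back skin, and they numbered 372 of 8206 kept cells. There were 228 of 4844 kept cells in the control library and 144 of 3362 in the Gli2EKO library. Kept cells had between 1000 and 8000 detected genes, and mitochondrial genes gave less than 15% of their UMIs (unique molecular identifiers, counted transcripts). A member had at least 10 UMIs per 10000 of Krt5, Krt14 and Krt17 summed, under 50 per 10000 of Krt1 and Krt10 summed, at least 1 UMI of 3 or more of 7 marker genes, Krt6a or Cst6 among them, and at most 1 of the sebocyte genes Cidea, Fa2h and Cyp2g1. The 7 markers were Krt6a, Cst6, Wfdc18, Gpc6, Atp6v0a4, Nebl and Ppm1h. The members were thus chosen by measured values of these genes, so that their levels, and every difference between members and other cells of the same libraries, are given as a description without a test.

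The skin epithelium was prepared as epidermal whole mounts from back skin at postnatal day 2, and 1 library was made per genotype. Gli2EKO mice carried the K14Cre transgene and floxed alleles of Gli2 (K14Cre tg; Gli2 fl/fl, C57BL/6N background), in which Cre is made in keratinocytes and their descendants and other cell types keep the gene. The control library, labelled WT, came from mice that the study describes as floxed littermates without Cre, and how many mice entered each library is not given in the sources used here. With 1 library per genotype no difference between genotypes could be tested, and all intervals cover counting error only. The question put to these cells was how this follicle population, its marker genes and the differentiation genes around them compared with and without epidermal Gli2.

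The hair follicle is built of concentric layers. The outer root sheath surrounds the companion layer, a single flat sheet of cells known for Krt75 and Krt6a, which in turn holds the inner root sheath and the hair shaft. Above the sebaceous gland the follicle opens through the infundibulum and hair canal, whose inner cells are known for Krt79 and descend from Lrig1-expressing keratinocytes. Gli2 is the main activating transcription factor of Hedgehog signalling, and Ptch1 and Gli1 are its usual readouts.

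Member cells were deep enough for single-gene values, with 3883506 UMIs in all in the control library and 2444299 in Gli2EKO. Their median depth was 14123.5 and 14180 UMIs per cell, with a median of 4282 and 4259 detected genes, and the median mitochondrial share was 2.52% and 2.76%. The remaining keratin-gated cells, which passed the keratin limits without being members, had a median of 13017 and 12929 UMIs and numbered 2554 and 1863. No cell barcode was shared between the libraries (0 shared barcodes). Levels below are UMIs per 1000000 (CPM), a gene's UMIs scaled to the total of the summed cells. The assay counts molecules near their polyA end, so these levels carry no length term. Gli2 itself stood at 65.1 CPM in control members and 69.1 CPM in Gli2EKO members and was found in 119 and 72 cells. Because counting takes place at the polyA end and the position of the deleted exons is not given in the sources used here, this value does not check the label.

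Markers of other cell types were present in some members. Summed immune markers reached 3 per 10000 in 2 control and 1 Gli2EKO member, melanocyte markers in 9 and 4, fibroblast markers in 46 and 23, and endothelial markers in 0 and 0. Together 53 control members (23.2%) and 26 Gli2EKO members (18.1%) carried such markers, against 27.3% and 24.1% of the remaining keratin-gated cells. The immune list summed to 212 and 29.9 CPM, the melanocyte list to 830.2 and 408 CPM and the fibroblast list to 1280.3 and 662 CPM, higher in the control members each time. In the remaining keratin-gated cells the immune list summed to 21.3 and 67.1 CPM, the melanocyte list to 83.8 and 85.4 CPM and the fibroblast list to 1238 and 698 CPM, so that melanocyte RNA in both libraries and immune RNA in control were higher in members, and their part in the results was not tested beyond leaving such cells out. Among these lists, Cd3e and Cdh5 were at 0 in the members of both libraries. By doublet score, 28 (12.3%) and 20 (13.9%) members were in the top 8% of their library, against 10.8% and 8.27% of the remaining keratin-gated cells. Of the members with other cell type markers, 34.0% and 42.3% were in that top 8%. For several results that moved without these cells, both values are given.

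Member cells made up 4.71% of kept control cells (95% Clopper-Pearson interval 4.13 to 5.34) and 4.28% of kept Gli2EKO cells (3.62 to 5.02). The ratio, Gli2EKO over control, was 0.910 with a conditional interval of 0.733 to 1.13, so a difference in share was not detectable at this number of cells. Of all keratin-gated cells, members were 8.20% and 7.17%, a ratio of 0.875 (0.706 to 1.08). The number of markers per member was also close. Members with 5 or more of the 7 markers were 90 of 228 (39.5%) in control and 55 of 144 (38.2%) in Gli2EKO. Just inside the limit, 96 and 56 members had exactly 3 markers, and just outside it 394 and 179 keratin-gated cells had 2. All 7 markers were found in 21 control cells and 5 Gli2EKO cells. Krt6a and Cst6 occurred together in 80 and 60 members, Krt6a without Cst6 in 51 and 38, and Cst6 without Krt6a in 97 and 46.

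Among the 7 markers of the rule, Cst6 stood highest. This gene encodes cystatin E/M, a secreted inhibitor of cysteine proteases, and it was at 3343 CPM in control and 3864 CPM in Gli2EKO members. A few cells held most of it. The median member had 0.926 UMIs per 10000 in control and 0.950 in Gli2EKO, while the highest cell reached 865 and 1704 per 10000 and alone held 18.5% and 31.2% of all Cst6 UMIs. Krt6a, a keratin of the companion layer and of stressed epidermis, was at 634 and 885 CPM and was found in 131 (57.5%) and 98 (68.1%) members. Its 75th percentile was close in the libraries, at 8.51 per 10000 in control and 9.03 in Gli2EKO.

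Nebl, which encodes the actin-binding protein nebulette, was at 426 and 527 CPM and was the most widely found marker, in 83.3% and 79.9% of members. Gpc6, a cell surface heparan sulphate proteoglycan, was at 412 CPM in control and 231 CPM in Gli2EKO. Wfdc18, a small secreted protein with a WAP domain, was at 135 and 103 CPM, the proton pump subunit Atp6v0a4 at 104 and 114 CPM, and the phosphatase Ppm1h at 75.4 and 51.1 CPM. All 7 were at least 2-fold above the remaining keratin-gated cells, from which the rule separates the members by these genes. Ppm1h was more widely found in immune cells than in members, however. It had a UMI in 61.4% of control and 71.0% of Gli2EKO immune cells, against 45.2% and 33.3% of members. The other markers were found in a smaller share of immune cells than of members. Whether immune RNA helped cells to pass the rule through Ppm1h was not tested.

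**Figure D1:**
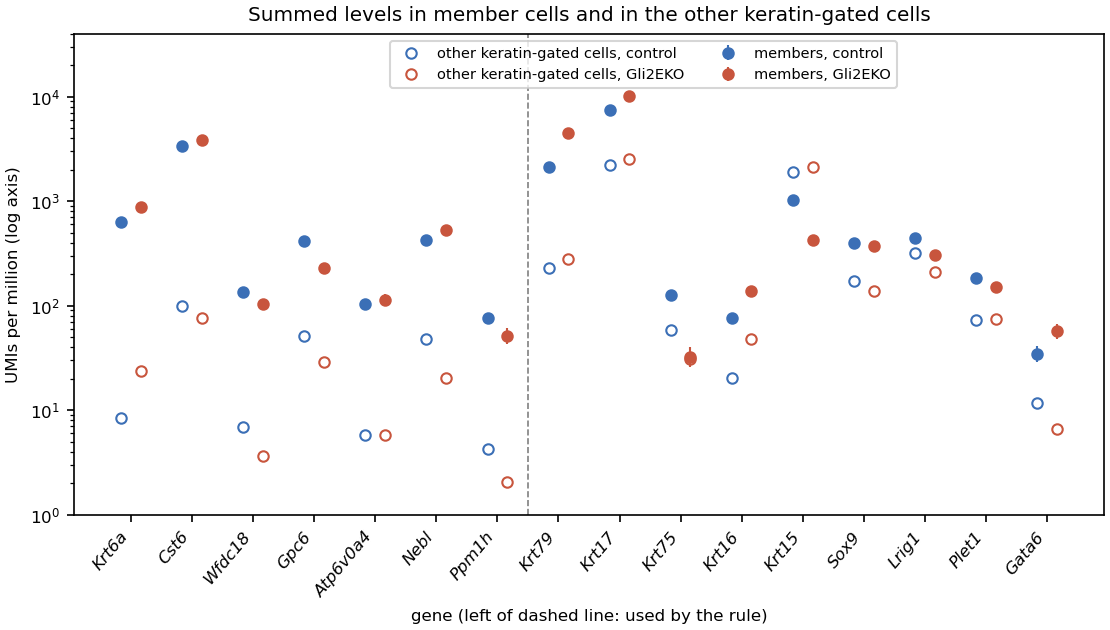
Levels of 16 genes in UMIs per 1000000 (log axis), by library. Filled points are member cells with 95% exact Poisson intervals, mostly smaller than the point, and open circles are the remaining keratin-gated cells; genes left of the dashed line were used by the rule. Krt79 stood at 2105 CPM in control and 4469.6 CPM in Gli2EKO members, while Krt15 lay below the open circles in both libraries.

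The proposed name of a companion layer cell was checked against the companion keratins. Krt75, the defining one, was found in 29 of 228 control members (12.7%, interval 8.69 to 17.8) and in 17 of 144 Gli2EKO members (11.8%, 7.03 to 18.2). With every cell thinned to 2000 UMIs the shares were 3.07% and 3.47%, and in the remaining keratin-gated cells they were 4.28% and 2.05% (unthinned 11.1% and 6.28%). Of immune cells, which should lack the gene, 0 of 101 control and 0 of 62 Gli2EKO cells had a Krt75 UMI after thinning, which allows shares of up to 2.97% and 4.84%. Without thinning, 2.97% and 0% of immune cells had a Krt75 UMI, below the member shares. Most members thus had no Krt75 UMI, and the thinned share in members was not above that of the remaining keratin-gated cells in control (3.07% and 4.28%). Krt6b was nearly absent, with 1 and 5 UMIs, and Krt16 was found in 14.0% and 20.8% of members, at 76.2 and 138 CPM against 20.3 and 47.9 CPM. Summed over the libraries, 4 of the 4 companion keratins with enough UMIs were higher in members and 3 at least 2-fold, Krt6a of the rule and Krt17 of the keratin gate among them. Krt17, a keratin gate gene shared by outer root sheath and companion layer, was found in 100% and 99.3% and stood at 7428 and 10137 CPM, against 2197 and 2548 CPM in the remaining keratin-gated cells. Because the defining keratin was found in so few members, the cells are named here by the genes of the rule.

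Upper follicle genes were more widely found. Krt79, which the rule did not use, was found in 131 (57.5%) control and 94 (65.3%) Gli2EKO members, and in 37.7% and 50.7% after thinning, against 12.9% and 12.6% of the remaining keratin-gated cells. Immune cells had a Krt79 UMI in 4.95% and 0% after thinning (0 of 62 allows up to 4.84%), at a median depth of 10918 and 11518 UMIs. Krt79 was not confined to the members, however, since cells with 2 or 3 of the sebocyte genes had 2441 and 2969 CPM and cells above the Krt1 and Krt10 limit had 1704 and 1220.0 CPM. Sox9, a transcription factor of the outer root sheath, was at 397 and 374 CPM in members against 171 and 138 CPM in the remaining keratin-gated cells. Plet1, a junctional zone surface protein, was at 182 and 150.2 CPM against 72.0 and 74.2 CPM. Lgr6, an isthmus stem cell receptor, did not separate the groups, at 96.8 and 65.1 CPM against 99.0 and 78.5 CPM.

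The members were not uniform in Krt79. Its median was 0.724 per 10000 in control and 3.16 in Gli2EKO, the 75th percentile 15.8 and 55.4, the 90th 74.5 and 145, and the highest cell reached 188 and 244 per 10000. At 20 per 10000 or more were 56 of 228 control members (24.6%) and 51 of 144 Gli2EKO members (35.4%), called Krt79-high here. The limit of 20 is a point on a range and not a gap between types, since 21 and 16 members lay between 10 and 40 per 10000. The plot of single cells shows that Krt6a ran across this range. Krt6a at 2 per 10000 or more was found in 31 of 56 control and 25 of 51 Gli2EKO Krt79-high cells. Among Krt79-low cells, 56 control and 47 Gli2EKO cells were Krt6a-high and 116 and 46 were Krt6a-low by the same limit.

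**Figure D2:**
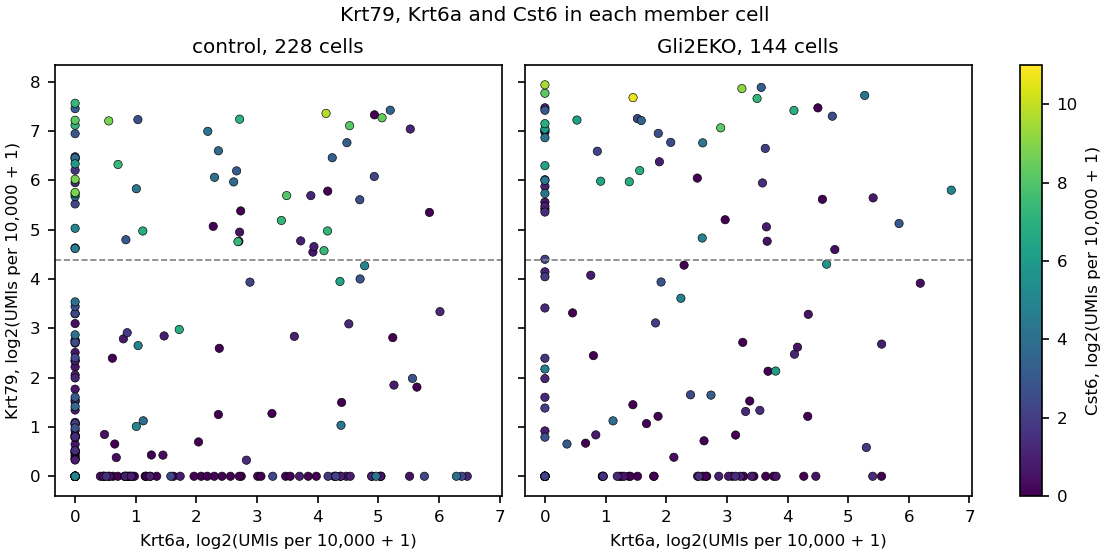
Each point is a member cell, 228 control on the left and 144 Gli2EKO on the right, placed by Krt6a and Krt79 as log2(UMIs per 10000 + 1) and coloured by Cst6 on the same scale. The dashed line is 20 Krt79 UMIs per 10000; 56 control and 51 Gli2EKO cells lay on or above it, some of them at low and some at high Krt6a.

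Several genes were higher in Krt79-high cells in both libraries, and those named here include genes chosen for their correlation with Krt79. Cst6 stood at 11522 and 8837 CPM in them against 281 and 252 CPM in Krt79-low members, and Klk7, a protease that cuts desmosome proteins of the outer layers, at 1479 and 1325 CPM against 38.6 and 125 CPM. The short-chain dehydrogenase gene Sdr16c6 was at 458 and 632 CPM against 19.8 and 21.9 CPM. Ly6g6c stood at 1179.5 and 1138 CPM against 33.3 and 96.8 CPM. The transcription factor Gata6, known from the upper follicle and sebaceous duct, was at 74.7 and 116 CPM against 19.5 and 14.1 CPM. Nebl was at 955 and 935 CPM against 229 and 230.2 CPM.

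Basal genes ran the other way. Krt5 was at 2119 and 1322.5 CPM in Krt79-high members against 4603.5 and 4958 CPM in Krt79-low ones, the gap junction gene Gja1 at 507.5 and 235 CPM against 1051 and 792 CPM, and the hemidesmosome collagen Col17a1 at 73.7 and 15.6 CPM against 230.1 and 150.4 CPM. The proliferation gene Mki67 was at 143 and 133 CPM against 502 and 354.5 CPM. Wfdc18, although a marker of the rule, was lower in the Krt79-high cells, at 65.2 and 43.8 CPM against 161 and 145 CPM. The correlation of Krt79 with the total depth of a cell was 0.05 in control and 0.23 in Gli2EKO.

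The Krt79-low members also differed in Krt6a. Their Krt6a-high cells had 717 and 361 CPM of Gpc6, 349 and 204 CPM of Wfdc18, 11392 and 10338 CPM of Krt17 and 1769.5 and 982 CPM of Gja1. Their Krt6a-low cells had 220.0 and 199 CPM of Gpc6 and 4104 and 4363 CPM of Krt17. These Krt6a-low cells held more of the outer root sheath keratin Krt15, at 1425 and 752 CPM against 426 and 225 CPM, and more Lgr6, at 138 and 144 CPM against 30.6 and 24.0 CPM. Mki67 was at 590.5 and 499 CPM in them against 259 and 192 CPM. The melanocyte gene Dct (824.5 and 499 CPM) and, in control, the antigen presentation gene Cd74 (319 CPM) also lay mostly in the Krt6a-low cells, and their part in these values was not tested.

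**Figure D3:**
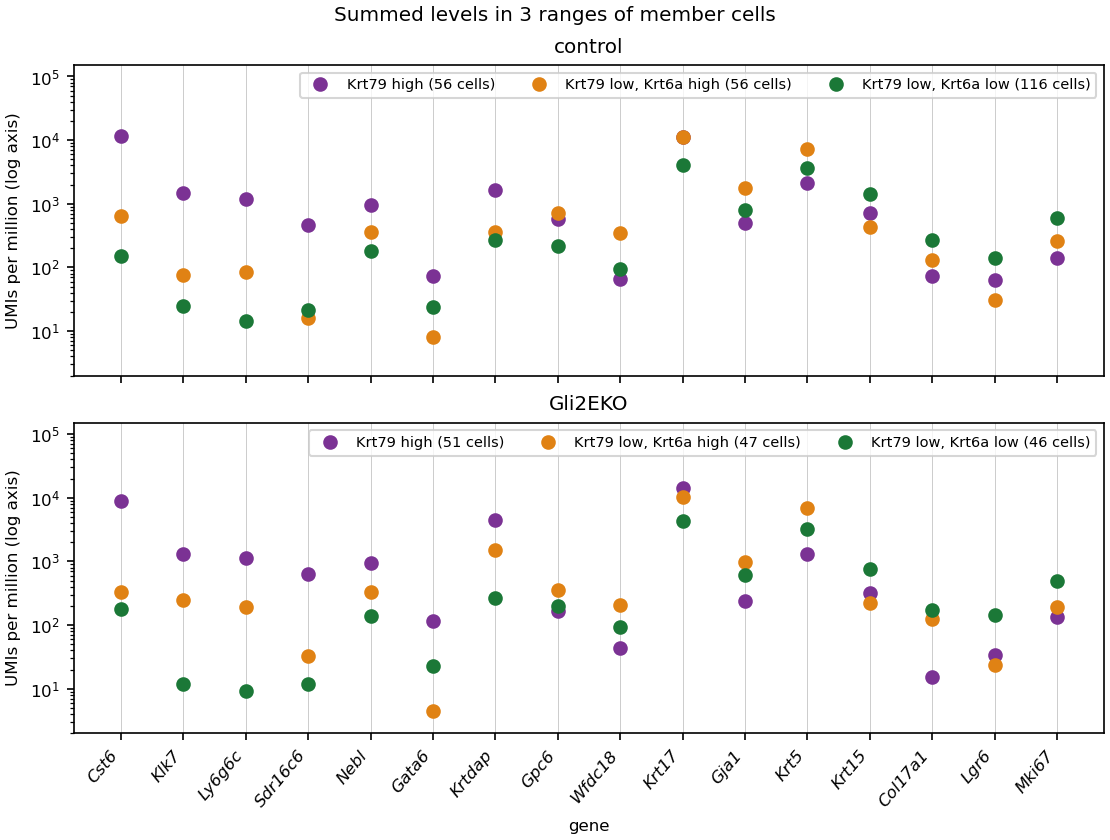
Levels of 16 genes in UMIs per 1000000 (log axis) in Krt79-high cells, in Krt79-low cells with Krt6a at 2 per 10000 or more, and in the remaining Krt79-low cells, control above and Gli2EKO below. In both libraries Cst6, Klk7, Ly6g6c, Sdr16c6 and Nebl were highest in Krt79-high cells, Wfdc18, Gja1 and Krt5 in the Krt6a-high cells, and Krt15, Lgr6 and Mki67 in the Krt6a-low cells.

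Correlations of log values over member cells use no limit. Some genes of the Krt79 contrast above were chosen by these correlations, so the contrast and the correlations are not separate results. These values share a library, and they are a description over 228 control and 144 Gli2EKO cells. Among genes found in at least 25% of the members of a library, Sdr16c6 followed Krt79 most closely in each, with a Pearson r of 0.756 in control and 0.750 in Gli2EKO. Next came Fbxo32, Nebl, Cst6 and Atp6v1c2 in control (r from 0.63 to 0.67), and Ablim1, Klk7, Tmem45a and Ly6d in Gli2EKO (r from 0.67 to 0.73). For Krt75 the highest in control was the zinc transporter gene Slc39a6 (r = 0.49), with Prickle1, Hspb8 and Cux1 among the next, and in Gli2EKO Nhs (r = 0.54), with Nectin3, Cux1 and Hspb8 among the next. Hspb8 and Cux1 were on both lists, with Krt75 found in only 29 and 17 of the cells. Krt79 and Krt75 did not vary together, with an r of -0.07 in control and 0.07 in Gli2EKO. Krt79 and Krt6a had an r of 0.14 and 0.04.

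Outside the rule's genes, the 20 genes with the highest ratio of members over the remaining keratin-gated cells had varied known roles. These ratios, and the counts of genes higher or lower in members below, sum both libraries. Among all 11965 genes with at least 20 UMIs in members, 47.6% were higher in members, 6.37% were at least 2-fold higher and 2.35% at least 2-fold lower. Klk7 led, at 431 CPM in control members against 27.5 CPM in the remaining keratin-gated cells and at 630.0 CPM against 19.1 CPM in Gli2EKO. Sprr1a, a small proline-rich protein of the cornified envelope, was at 416 and 509 CPM against 21.7 and 21.6 CPM. Atp6v1c2, a proton pump subunit like the marker Atp6v0a4, was at 91.4 and 79.4 CPM against 6.46 and 5.58 CPM. The adhesion receptor Adgrf2, the secreted phospholipase Pla2g2f, the lysosomal cystine transporter Ctns, the lipid transporter Abca12 and the motor protein Myo5b were also among the 20. Cstb, encoding the intracellular protease inhibitor cystatin B, was widely found, at 1158 and 1102 CPM in 92.1% and 93.8% of members. Krt79, Pstpip2, Slc43a2, Ablim3, Rnase12, Ly6g6c, Bpifc, Blnk, Gpr155, Calml3 and Sh3tc2 completed the 20.

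Gene lists were also counted, read beside the 47.6% and 6.37% of all genes. Some of them hold rule markers or genes already named, such as Klk7 among the kallikreins, so they are not separate support. Of the 7 kallikrein protease genes measured, 7 were higher in members and 6 at least 2-fold, with a list sum of 734 CPM in control members against 92.7 CPM and of 996 CPM against 106 CPM in Gli2EKO. Of 13 desmosome genes 12 were higher and 7 at least 2-fold, among them Dsp at 2175 and 1872 CPM against 870.3 and 752 CPM. Of 12 cornified envelope genes 10 were higher and 9 at least 2-fold, among them Sbsn and Scel. Of 18 proton pump subunits 16 were higher, but only 3 at least 2-fold (the rule marker Atp6v0a4, Atp6v1c2 and Atp6v1b2). Of 11 cystatin, legumain and transglutaminase genes 9 were higher and 6 at least 2-fold, the rule marker Cst6 among them. Of 19 follicle transcription factors 15 were higher and 6 at least 2-fold, with Gata6, Grhl3, Grhl1, Sox9, Foxn1 and Foxq1.

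Several other lists had few or no genes higher in members, summed over both libraries. Of 6 epidermal basal genes, 6 matrix genes and 4 smooth muscle genes 0 were higher, and of 7 sebocyte genes 1 was. By library, the basal list summed to 10328 CPM in control members against 9603 CPM, and to 11128 against 15361 CPM in Gli2EKO. The rule left out cells with 2 or 3 of Cidea, Fa2h and Cyp2g1. These 50 control and 28 Gli2EKO cells stay among the remaining cells, so lower sebocyte genes in members follow in part from the rule. Of 13 hemidesmosome and basement membrane genes 1 was higher (Plec), and Col17a1 and Itga3 were at least 2-fold lower. Of 13 S phase genes and 14 G2 and M phase genes 0 were higher in members, although Mki67 was still found in 54.8% and 47.2% of members. Of 12 immediate early and stress genes only Jund was higher, by 1.12-fold in control, with 0.881 times the level of the remaining cells in Gli2EKO. Hedgehog pathway genes were low as well, with 3 of 12 higher (Sufu, Gas1 and Boc) and 4 at least 2-fold lower (Shh, Ptch1 and Cdon among them). Within Gli2EKO alone Gas1 was lower in members (161 against 238 CPM) and Shh higher (16.8 against 13.0 CPM). Ptch1, the receptor and a target of the pathway, was at 89.6 CPM in control members against 202 CPM, and at 68.7 CPM against 146 CPM in Gli2EKO. Gli1, the other common target, was at 13.9 and 9.0 CPM against 26.2 and 15.98 CPM. Of 16 Wnt pathway genes 6 were higher and 5 at least 2-fold lower. Among 10 Notch pathway genes 7 were higher, with 2 at least 2-fold higher and 2 at least 2-fold lower. Notch3 was at 50.7 and 66.7 CPM against 18.9 and 14.4 CPM.

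**Figure D4:**
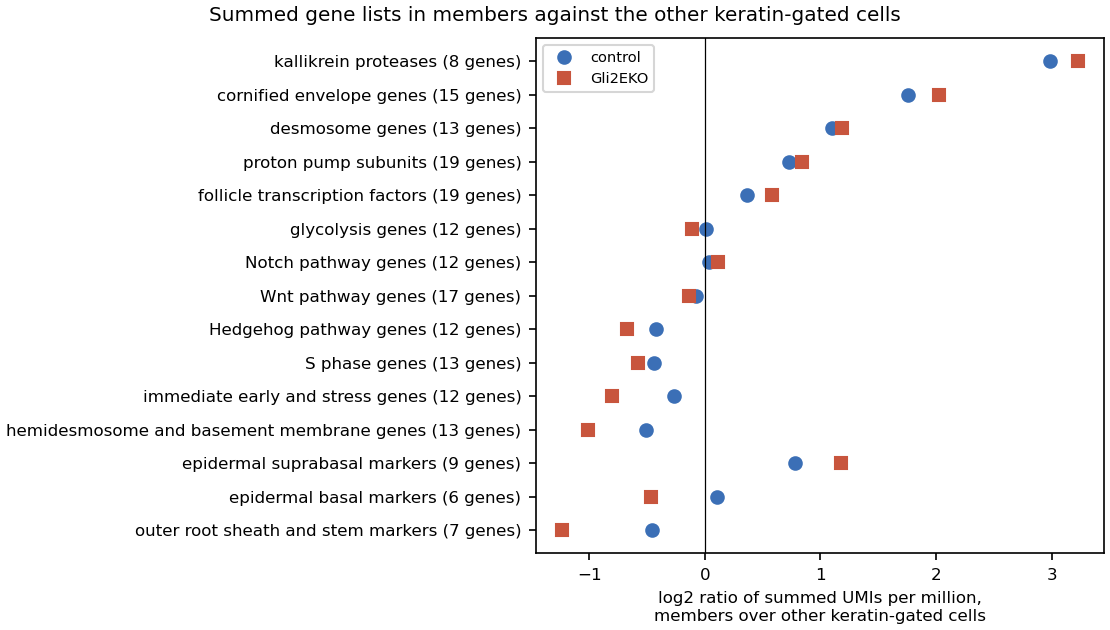
Summed UMIs per 1000000 of 15 gene lists in members over the remaining keratin-gated cells (log2 ratio, 0 for no difference), circles for control and squares for Gli2EKO. The list of rule markers and the lists of other cell types are not shown. Of the lists shown, the kallikrein list lay farthest to the right, at sums of 734 and 996 CPM against 92.7 and 106 CPM. The outer root sheath and stem list and the hemidesmosome list lay left of 0 in both libraries. By gene, however, 4 of the 7 outer root sheath and stem markers were higher in members, summed over both libraries. Of these markers 1 was at least 2-fold higher and 3 at least 2-fold lower. The basal list holds Krt5 and Krt14, and the proton pump list holds Atp6v0a4, all of which the rule used.

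Between the genotypes, Krt79 was higher in Gli2EKO members. It stood at 2105 CPM in control members (exact Poisson interval 2059 to 2151) and at 4469.6 CPM in Gli2EKO members (4386 to 4554), a log2 ratio of 1.09 (1.04 to 1.13). In the remaining keratin-gated cells the log2 ratio was 0.28, from 229 CPM and 279 CPM. The gap in members lay both in how many cells were Krt79-high and in the level within them, which was 7316 CPM in control and 10292 CPM in Gli2EKO. The share of Krt79-high members was 1.44 times that of control, with an interval of 0.967 to 2.15 that includes no difference. At limits of 10 and 50 per 10000, chosen after the data were seen, the ratio was 1.53 (1.05 to 2.23) and 1.67 (1.03 to 2.71). With every cell first thinned to 5000 UMIs for the rule, which left 120 and 79 members, the log2 ratio of Krt79 was 0.70 and the ratio of Krt79-high shares 1.01.

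The other genes of the rule differed less than 2-fold, and since the rule chose cells by them their values are only described. Krt6a had a log2 ratio of 0.48 (0.40 to 0.57) against 1.48 in the remaining keratin-gated cells, although its mean over member cells was 7.74 per 10000 in control and 7.73 in Gli2EKO. Over the remaining cells the mean of Krt6a was 0.117 and 0.156 per 10000, and only 2.94% and 5.10% of them had a Krt6a UMI. The log2 ratio of the others was 0.30 for Nebl (0.20 to 0.41), 0.14 for Atp6v0a4 (-0.09 to 0.36), -0.40 for Wfdc18 (-0.62 to -0.18), -0.56 for Ppm1h (-0.87 to -0.25) and -0.84 for Gpc6 (-0.98 to -0.70). Cst6 had a log2 ratio of 0.21 (0.17 to 0.25), which became -0.034 when the cell with the most Cst6 was left out of each library. Gpc6 had the same direction in the remaining keratin-gated cells, at -0.82.

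Among 9851 genes with at least 50 UMIs in members, 85 (0.863%) were at least 2-fold higher in Gli2EKO and 245 (2.49%) at least 2-fold lower. In the remaining keratin-gated cells, whose summed depth is larger, the same genes gave 31 (0.315%) and 113 (1.15%). Leaving out the cell with the most UMIs of each gene gave 59 and 274 genes, of which 51 and 194 were shared with the first counts. Fewer were shared under other rules, with 64 and 141 without the top doublet scores, 49 and 105 without members carrying other cell type markers, 40 and 77 with at least 4 markers, and 36 and 63 with the rule at 5000 UMIs.

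Of the 12 genes highest in Gli2EKO members, Krtdap was the most abundant. This gene of differentiating keratinocytes was at 657 CPM in control and 2376 CPM in Gli2EKO, a log2 ratio of 1.86 (1.79 to 1.92), and was found in 121 (53.1%) and 96 (66.7%) members. It was also higher in the remaining keratin-gated cells, with a log2 ratio of 1.28. Aox4, an aldehyde oxidase gene, had a ratio of 1.84 (1.28 to 2.42) over 22 and 30 cells. The growth factor gene Areg stood at 1.82 (1.24 to 2.43) over 22 and 28 cells, Arg2 at 1.74 (1.18 to 2.32) over 26 and 31 cells, and Fads2b at 1.72 (1.25 to 2.20) over 28 and 27 cells. For these 5 genes no cell held more than 16.3% of the UMIs.

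The 7 other genes of the 12 rested on few cells. In Gli2EKO a single cell held 95.2% of the UMIs of S100a8, 93.5% of Cx3cr1, 94.0% of Sprr1b, 89.2% of Gabrp, 72.2% of Mc5r, 66.4% of Cdsn and 55.4% of Slpi. Their log2 ratios of 2.30 to 5.26 became 1.25 to 4.31 without the top cell, and that of S100a8 went from 5.26 to 1.48. S100a8 also stood at 1.60 without the cells of highest doublet score.

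Among the 12 lowest genes, Car6, a secreted carbonic anhydrase, was at 107 CPM in 11 control cells and 2.86 CPM in 5 Gli2EKO cells, a log2 ratio of -5.23 (-6.55 to -4.17). Its ratio was -4.99 in the remaining keratin-gated cells, so the gap was not particular to the members. Akr1cl likewise had -2.60 (-3.65 to -1.70) and -2.10. Flg, encoding filaggrin, had -3.29 (-4.45 to -2.33), with 65.7% of its control UMIs in 1 cell. Bmper had -3.21 (-4.46 to -2.19) over 20 and 4 cells. The others included genes of immune cells (Cd74, H2-Ab1, H2-Eb1), pigment cells (Oca2, Trpm1) and fibroblasts or fat (Fbn1, Fabp4), together with Pde10a. Without the members that carried markers of other cell types, Cd74 went from -5.01 to 1.10, H2-Ab1 from -4.14 to -0.22, H2-Eb1 from -3.60 to 3.39, Trpm1 from -2.51 to 1.59, Fbn1 from -2.50 to -0.58 and Fabp4 from -2.48 to -0.68. Oca2 and Pde10a then had too few UMIs for a value.

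**Figure D5:**
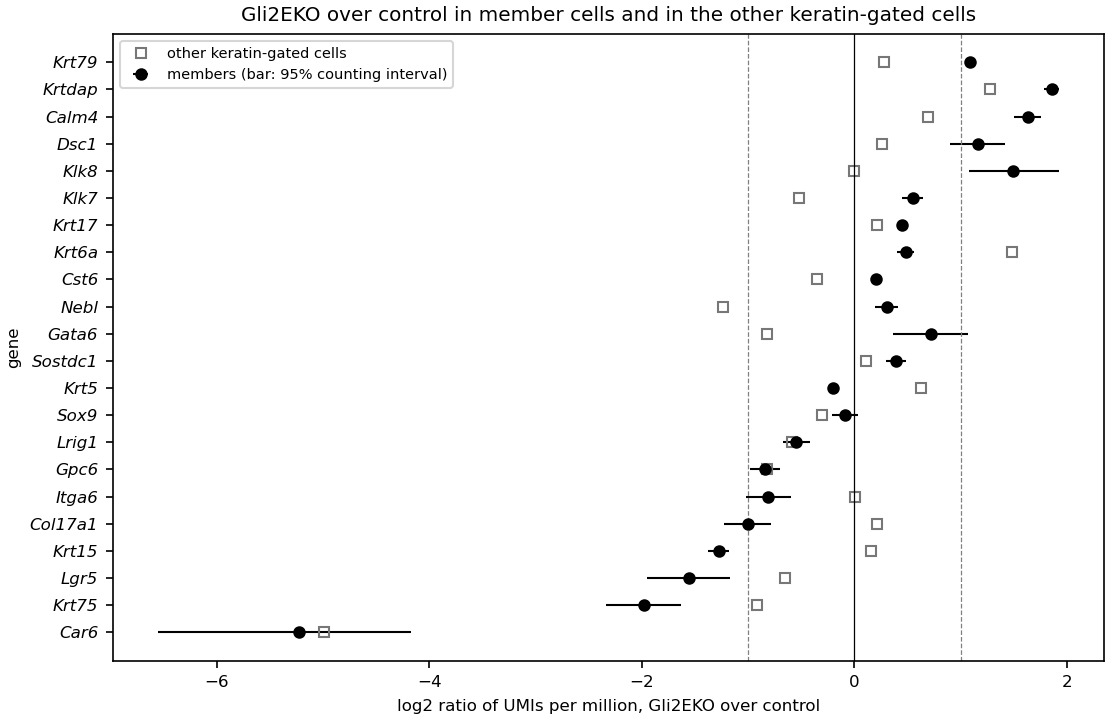
Log2 ratio of UMIs per 1000000, Gli2EKO over control, for 22 genes in members (black points, bars are 95% counting intervals) and in the remaining keratin-gated cells (open squares); dashed lines mark 2-fold. Krt79, Krtdap, Calm4, Dsc1 and Klk8 lay beyond 2-fold upward in members, and Krt15, Lgr5, Krt75 and Car6 beyond it downward, with Krt15 at -1.27 in members and 0.15 in the remaining cells.

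Some outer root sheath and basal genes were lower in Gli2EKO members and others were not. Of 6 epidermal basal markers 0 passed 2-fold, and Krt14 was at 5485 and 7067 CPM. Krt15 was at 1035 CPM in control and 428 CPM in Gli2EKO members, a log2 ratio of -1.27 (-1.37 to -1.18), although the remaining keratin-gated cells of Gli2EKO had slightly more (1895 and 2107 CPM, log2 ratio 0.15). It kept this direction in each alternative tried, with ratios from -1.37 to -0.999. Krt15 was highest in the Krt6a-low cells among Krt79-low members, which were a larger part of control than of Gli2EKO members. Within these cells, and within the Krt6a-high ones, Krt15 was also lower in Gli2EKO. How far the mix of cells enters the ratio was not tested. The stem cell receptor Lgr5 was at 81.6 and 27.8 CPM, a ratio of -1.55 (-1.95 to -1.17). Of the 7 outer root sheath and stem markers 2 were at least 2-fold lower and 0 higher, with a median of -0.55, where the median of all genes was -0.09 and 1.63% and 4.58% of all genes with at least 20 UMIs were at least 2-fold higher and lower. For the same markers the median in the remaining keratin-gated cells was close, at -0.50, so it was not particular to the members. With 0.5 UMIs added to each count, 0 of 13 hemidesmosome and basement membrane genes passed 2-fold either way, with a median of -0.48 and a range from -0.998 to -0.25, against a median of -0.03 for the same genes in the remaining keratin-gated cells. In that list Col17a1 was at 187 and 93.7 CPM, which without the added counts is a ratio of -1.001 (-1.22 to -0.78), just past 2-fold, and the integrin gene Itga6 at 181 and 103 CPM, -0.81 (-1.02 to -0.60).

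Genes of the differentiating layers were higher in part. Of the 9 suprabasal markers 2 were at least 2-fold higher, Krtdap and the calcium-binding Calm4 (198 and 612 CPM, a ratio of 1.63), and Flg was lower, with a list median of 0.70. The Krt1 and Krt10 limit was part of the rule, and with it tightened from 50 to 20 per 10000, which left 225 and 138 members, that median was 0.22 and the Krt79 ratio 0.91. With at least 4 of 7 markers the median was 0.0098. Among desmosome genes Dsc1, a desmocollin of upper layers, was at 55.1 and 123 CPM, a ratio of 1.16 (0.90 to 1.42), and the list median was 0.12 with 1 of 13 higher. Among 7 kallikreins Klk8 was higher (19.6 and 55.2 CPM) and Klk6 lower (77.2 and 37.2 CPM, with 63.3% of control UMIs in 1 cell). The kallikrein median was 0.37 in members and 0.53 in the remaining keratin-gated cells. Gata6 was at 34.5 and 56.9 CPM, a ratio of 0.72 (0.37 to 1.07), against -0.82 in the remaining keratin-gated cells. Sdr16c6 was at 139 and 279 CPM in members.

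Companion and inner layer genes showed no common direction. Krt75 was lower at 127 and 32.3 CPM, a ratio of -1.98 (-2.34 to -1.63), but 1 control cell held 49.2% of its UMIs, and under the rule at 5000 UMIs the ratio was 1.36. Krt17 had a ratio of 0.45 (0.42 to 0.47) and Krt16 of 0.86 (0.63 to 1.09), with 60.8% of the Krt16 UMIs of Gli2EKO in 1 cell. Of 7 inner root sheath markers Krt25 was at least 2-fold higher and Krt71 lower. Of 3 hair shaft markers measured Krt35 was higher, with 86.9% of its Gli2EKO UMIs in 1 cell.

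Signalling and cell cycle lists held few genes past 2-fold. Of 12 Hedgehog pathway genes only Shh, the ligand, passed 2-fold, from 4 UMIs in 4 control cells to 41 UMIs in 7 Gli2EKO cells, and the list median was -0.34 in members and -0.34 in the remaining keratin-gated cells. Ptch1 had a ratio of -0.38 (-0.66 to -0.11) and Gli1 of -0.63 (-1.41 to 0.11), an interval that includes no difference, while Gli3 had -0.95 (-1.24 to -0.67). Of 16 Wnt and 10 Notch pathway genes 0 passed 2-fold, with medians of -0.26 and -0.11. Of 13 S phase genes 1 was lower (Cdc6) and of 14 G2 and M phase genes 0 passed 2-fold, with medians of -0.37 and -0.12. Mki67 was at 404 and 261 CPM, a ratio of -0.63 (-0.76 to -0.50). It was highest in the Krt6a-low cells among Krt79-low members, which were a larger part of control than of Gli2EKO members. Within each range of members Mki67 was also lower in Gli2EKO, by less than this ratio. How far the mix of cells enters the ratio was not tested. Glycolysis genes had a median of 0.30, with 0 of 11 past 2-fold.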

How the data were processed

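Single-cell libraries of the 10x 3' v4 polyA assay were made from epidermal whole mounts, 1 per genotype. Per the labels and the study's methods, the authors aligned reads with Cell Ranger 9.0.1 to GRCm39 and deposited filtered matrices of UMI counts, whole numbers without normalization. The control matrix held 71021773 UMIs over 6326 barcodes and the Gli2EKO matrix 48866478 over 4296. The study removed doublets with scDblFinder, which was not run here, and no doublets were removed from the main values. Scrublet scores (scanpy 1.11.5, expected rate 0.06) served an alternative without the top 8% of each library, 408 and 294 cells with ties.

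UMIs were summed over member cells per library and written as CPM with exact Poisson intervals, and ratios have conditional binomial intervals (95%, scipy 1.17.1). List medians used genes with at least 20 UMIs and 0.5 UMIs added. Cells were thinned to 2000 UMIs with seed 1. The code for the log2 ratios was checked on simulated counts. Genes named were those of the rule and of 38 lists, the 12 highest and 12 lowest ratios (at least 100 UMIs in all and 5 in each library, ribosomal, mitochondrial and unnamed genes left out), the 20 with the highest ratio of members over other gated cells among genes found in at least 25% of members, and the 5 best correlated with Krt79 and Krt75. A few genes that this rule names are not reported here. Those of the closing observations were chosen after their values were seen. The members and lists were chosen with earlier results of these data known.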

Additional observations from a re-analysis of the deposited data

How the results depend on the processing

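With 1 library per genotype no replicate could be left out and no value was tested. No paired analysis was possible because each genotype has 1 library and no result comes from a test. The share of members in kept cells (ratios from 0.884 to 0.972) and the ratio of Krt79-high shares (1.01 to 1.67) stayed within their counting intervals under each alternative run. The Krt79 log2 ratio of 1.09 was 1.16 without the cells of highest doublet score, 0.93 with at least 4 of 7 markers, 0.70 with the rule at 5000 UMIs, 0.91 with Krt1 and Krt10 under 20 per 10000, 1.17 with median of ratios scaling, 1.24 without members carrying markers of other cell types and 0.93 as a mean over cells. The 85 higher and 245 lower genes became 195 and 548 at a minimum of 20 UMIs and 2696 and 2468 with no minimum, where single UMIs decide. Median of ratios scaling gave 115 and 191, so that higher genes were 37.6% of calls in place of 25.8%. Several values changed sign. The main medians were -1.22 for the immune list, -1.31 for the melanocyte list and -0.95 for the fibroblast list. Without the cells of highest doublet score, the immune list median was 1.27, Cd74 1.30, H2-Ab1 0.014 and H2-Eb1 2.92. With at least 4 markers, the immune list was 0.26, Cst6 -0.80 and Sprr1a -0.0086. With the rule at 5000 UMIs, the melanocyte list was 5.07, the immune list 5.09, Cd74 2.22, H2-Eb1 1.22, Pde10a 2.96, Trpm1 1.96, Nebl -0.017 and Krt75 1.36. With Krt1 and Krt10 under 20, the immune list was 0.30, Cst6 -0.037, Krt16 -0.0015 and Sprr1a -0.11. Without members carrying other markers, the fibroblast list was 0.28, the melanocyte list 0.23, Cd74 1.10, H2-Eb1 3.39, Trpm1 1.59 and Cstb 0.059. Cst6 was -0.034 without its top cell and Cstb 0.012 with median of ratios scaling. The cause of these changes was not tested beyond the cells left out. The settings on the top cell, on other markers and on Krt79 limits of 10 and 50 were chosen after seeing the data. At 228 and 144 cells the depth limits genes found in few cells.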

Other observations

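A few gene groups outside the comparisons above also set the members apart from the remaining keratin-gated cells or varied among them, and are given as values. Heparan sulphate proteoglycan genes summed to 1729 CPM in control and 1514 CPM in Gli2EKO members, against 1204 and 1017 CPM. This list holds the rule marker Gpc6, so its higher sum in members follows in part from the rule. The gap without Gpc6 was not tested. Of the 8 genes measured, 4 were higher in members, summed over both libraries, and 2 at least 2-fold. The syndecan gene Sdc1, which the rule did not use, was at 488 and 558 CPM against 197 and 172 CPM. Sdc1 was also the gene that followed Krt6a most closely over control members (r = 0.63, 228 cells), and over Gli2EKO members Arpc1b was (r = 0.52, 144 cells) with Sdc1 at 0.48. Lipid and sterol synthesis genes were lower in members, with 3 of 13 higher and 2 at least 2-fold lower, among them the desaturase gene Scd1 at 20.6 and 38.1 CPM against 157 and 188 CPM. The remaining cells here include the 50 control and 28 Gli2EKO cells with 2 or 3 sebocyte genes that the rule left out. Their part in this gap was not tested. The glycolysis list summed to 2526 and 3157 CPM against 2508 and 3409.6 CPM, with the Gli2EKO sum above the control sum in both groups of cells.

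Over Gli2EKO members Cst6 was most closely followed by Pla2g2f and Atp6v1c2 (r = 0.68 for both), with Gata6 at 0.66, and over control members by Atp6v1c2 (r = 0.73). Krt5 had the lowest r with Cst6 in both libraries, at -0.485 and -0.609. These correlations are descriptions over cells of a single library each.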
